A study of Mus musculus with 9 samples.

Results

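The intracellular lipid-binding proteins are small cytoplasmic carriers of fatty acids, retinol and retinoic acid, and 9 of their genes are described here: *Fabp1*, *Fabp2*, *Fabp3*, *Fabp4*, *Fabp5*, *Fabp7*, *Rbp2*, *Crabp1* and *Crabp2*. They are 9 of the 24357 genes in the deposited expression table, taken by name from this family. The members were selected on family membership with their FPKM in defective and normal mutant embryos already known, so every value of that contrast is given as a description, without a test. The data come from whole E9.5 mouse embryos retrieved from SR-B1 heterozygous intercrosses of strain C57Bl/6J x 129S2, with dams on control chow and yolk sacs dissected off. The 3 groups were wild-type embryos (WT), embryos homozygous for a null mutation of *Scarb1* that looked normal (KO-N) and embryos with the same mutation and a neural tube defect (KO-NTD). SR-B1, the product of *Scarb1*, is a lipoprotein receptor that both mutant groups lack in every tissue. The comparison of KO-NTD with KO-N thus sets apart embryos of one genotype by their form. The paper places SR-B1 protein in trophoblast giant cells around the conceptus, and not in the embryo, while the neural tube closes. Each group had 3 samples, each a pool of 3 embryos labelled female, sequenced as strand-specific poly-A libraries.

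The deposited values are FPKM, that is, fragments mapped to a gene divided by its transcript length and by the size of the library, with 1 value per group that combines its 3 pools and with lower and upper confidence bounds. The bounds were read as 2 standard deviations to each side of the value. They reached 17.7% to each side of the median gene of at least 1 FPKM in KO-NTD and 17.9% in KO-N. Read counts and values per pool were not used here, so n is 1 combined value per group and no test across pools was possible. *Scarb1* itself stood at 3.12 FPKM in KO-NTD embryos and 3.34 FPKM in KO-N embryos, against 12.4 FPKM in a further column headed Control, whose libraries the sources used here do not name and which was not taken to be WT. Although the pools are labelled female, 4 Y-linked genes were present in both mutant groups, with *Eif2s3y* at 5.12 FPKM in KO-NTD against 5.69 FPKM in KO-N. All 4 were higher in the Control column, where *Eif2s3y* was at 9.98 FPKM, and the part of this in comparisons with that column was not tested.

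Proteins of this family fold into a small barrel that shields one hydrophobic ligand from the cytoplasm. The Fabp members carry long-chain fatty acids to membranes, to enzymes and to nuclear receptors of the PPAR type, and each is named for a tissue in which it is abundant. The CRBP members, such as the product of *Rbp2*, hold retinol and retinal for storage or oxidation, and the CRABP members bind retinoic acid, which patterns the hindbrain, the spinal cord and the axial skeleton of the embryo. CRABP2 passes retinoic acid to its nuclear receptors, and CRABP1 holds it in the cytoplasm, where it can be broken down.

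*Fabp7* was the member that stood apart in KO-NTD embryos, and *Crabp1* was the member of highest level, so the sequence around the start of each of these genes is shown. The sequences are from RefSeq on build GRCm38.p6 and run from 250 bases before the transcription start through the first 50 transcribed bases. *Fabp7* lies on the plus strand and its window is chr10:57784673-57784972, and the window of *Crabp1*, also on the plus strand, is chr9:54764498-54764797. Capitals mark matches to the motifs searched, and the *Crabp1* window, which was added after its values were seen, holds none.
Fabp7: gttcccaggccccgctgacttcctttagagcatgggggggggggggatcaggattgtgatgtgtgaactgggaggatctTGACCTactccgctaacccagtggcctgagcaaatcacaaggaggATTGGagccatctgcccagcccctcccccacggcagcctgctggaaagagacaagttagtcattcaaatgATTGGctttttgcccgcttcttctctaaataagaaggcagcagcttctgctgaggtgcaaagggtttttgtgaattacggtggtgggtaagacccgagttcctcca
Crabp1: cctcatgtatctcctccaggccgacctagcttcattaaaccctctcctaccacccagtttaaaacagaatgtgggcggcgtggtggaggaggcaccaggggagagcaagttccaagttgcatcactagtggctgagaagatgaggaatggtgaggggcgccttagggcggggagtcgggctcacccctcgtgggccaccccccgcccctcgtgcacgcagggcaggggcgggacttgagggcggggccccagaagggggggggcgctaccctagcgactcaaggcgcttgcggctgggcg

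The motifs searched on both strands were TATAAA (the TATA box), AGGTCA (the core of a nuclear receptor site), AGATAA (known for GATA factors), ATTAAC (known for HNF1), ATGCAAAT (the octamer of POU factors), TTTATG (known for CDX factors) and CCAAT (the CCAAT box), and no match overlapped another in the *Fabp7* window. That window held AGGTCA on the minus strand from 171 bases before the start, and CCAAT on the minus strand from 126 and from 56 bases before it. Among 32851 RefSeq promoter windows of the same length, AGGTCA was found in 16.3% and CCAAT in 37.4%. The GC content was 54.0% with 6 CpG pairs in *Fabp7* and 65.0% with 17 CpG pairs in *Crabp1*, against medians of 52.7% and 7 over all windows. The windows of 6 of the 9 members were matched. *Fabp3* also held no motif, *Fabp2* held 1 CCAAT, *Fabp1* held 1 TATAAA and 2 AGGTCA among its 6 matches and *Rbp2* held 2 TATAAA and 1 AGGTCA among its 4, so these letters were found both in members near 0 FPKM and in *Fabp7*.

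The 9 genes fell into 3 ranges of level, which hold in the Control, KO-N and KO-NTD columns alike. *Crabp1*, *Crabp2* and *Fabp5* lay above 150 FPKM and together made up 97.3% to 97.8% of the summed FPKM of the members. *Fabp7* and *Fabp3* lay between 6 and 14 FPKM, and *Fabp1*, *Fabp2*, *Fabp4* and *Rbp2* lay below 0.5 FPKM, with a sum of 0.744 FPKM in KO-N and 0.875 FPKM in KO-NTD. The summed FPKM of all 9 was 756 in the Control column, 752 for KO-N and 640 for KO-NTD, which was 14.9% under KO-N. Only the 5 members in the upper ranges passed a filter of a mean of at least 0.5 FPKM over both mutant groups, as 13569 genes did in all. All fold changes below are log2 ratios of FPKM + 0.1, which understates changes of low values, with a 95% interval built from the bounds.

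*Crabp1* (chr9:54764748-54773110 in mm10, plus strand, 4 exons, 137 residues) was the most abundant member in every column. Its level was 260 FPKM in KO-NTD, with bounds of 220 and 299, against 309 FPKM in KO-N, with bounds of 261 and 357, and 301 FPKM in the Control column. The KO-NTD value was the lowest of the 3, 16.0% under KO-N, and the bounds of both groups overlapped. The log2 fold change, KO-NTD to KO-N, was -0.25 (95% interval -0.56 to 0.06), and 8.67% of the genes that passed the filter had a lower one. Its level exceeded that of 98.8% of all genes in KO-NTD and 99.0% in KO-N.

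*Crabp2* (chr3:87948693-87953372, plus strand, 138 residues) followed nearly the same course one step below. It was at 189 FPKM in KO-NTD, with bounds of 160 and 219, at 227 FPKM in KO-N, with bounds of 191 and 262, and at 229 FPKM in the Control column. KO-NTD was again lowest, 16.5% under KO-N with overlapping bounds, and the log2 fold change was -0.26 (95% interval -0.57 to 0.05). The ratio of *Crabp1* to *Crabp2*, which compares levels per length, was 1.37 for KO-NTD, 1.36 for KO-N and 1.31 for the Control column, so the balance of the CRABP pair moved little while both were lower. The KO-N levels of the pair were near those of the Control column, with log2 fold changes of 0.04 for *Crabp1* and -0.01 for *Crabp2*.

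*Fabp5*, the epidermal type that hands ligands to PPAR delta, was the most abundant fatty acid carrier (chr3:10012585-10016610, plus strand, 135 residues). It was at 177 FPKM in KO-NTD, with bounds of 149 and 205, at 196 FPKM in KO-N, with bounds of 165 and 227, and at 207 FPKM in the Control column. The order was the same as for *Crabp2*, but the KO-NTD value was only 9.61% under KO-N, with a log2 fold change of -0.15 (95% interval -0.46 to 0.17). Of the 50-base windows of its transcript, 21.1% are also found in transcripts of 5 other annotated genes, of which *Gm6166* holds the most, so a part of its value depends on how shared reads were divided.

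*Fabp7*, the brain type of radial glia and other neural progenitors, which binds polyunsaturated fatty acids, had the largest fold change among the 5 members above the filter (chr10:57784923-57788450, plus strand, 4 exons, 132 residues). Its level was 6.62 FPKM in KO-NTD, with bounds of 4.62 and 8.62, against 12.5 FPKM in KO-N, with bounds of 9.34 and 15.7. The Control column held 11.5 FPKM, with bounds of 8.49 and 14.6, close to KO-N. The KO-N value was 1.89 times the KO-NTD value and the bounds left a gap, whereas the KO-NTD and Control bounds overlapped slightly, between 8.49 and 8.62 FPKM. The log2 fold change was -0.91 (95% interval -1.46 to -0.36) over KO-N and -0.79 (95% interval -1.35 to -0.23) over the Control column, and that of KO-N over the Control column was 0.12 (95% interval -0.40 to 0.63). Both ratios of KO-NTD share the one KO-NTD value. Of the genes that passed the filter, 114, or 0.840%, had a lower fold change in the contrast of KO-NTD with KO-N. This rank, like that of *Crabp1*, comes from the contrast known when the members were chosen, and is a description only.

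*Fabp3*, the heart and muscle type, stood beside *Fabp7* in level but not in its difference between groups (chr4:130308778-130315463, plus strand, 133 residues). It was at 6.76 FPKM in KO-NTD, with bounds of 4.68 and 8.84, at 7.10 FPKM in KO-N, with bounds of 4.96 and 9.25, and at 6.86 FPKM in the Control column. The log2 fold change was -0.07 (95% interval -0.67 to 0.53), a span that includes both no difference and one of the limit used below. In KO-N the bounds of *Fabp7* and *Fabp3* barely cleared each other (9.34 against 9.25 FPKM), *Fabp7* being the higher. They overlapped in the Control column, with *Fabp7* the higher, and in KO-NTD, with *Fabp3* marginally the higher. Transcripts of the pseudogene *Fabp3-ps1* share 29.2% of its 50-base windows, and it overlaps *Zcchc17* on the other strand, so its value is uncertain to that extent.

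**Figure D1:**
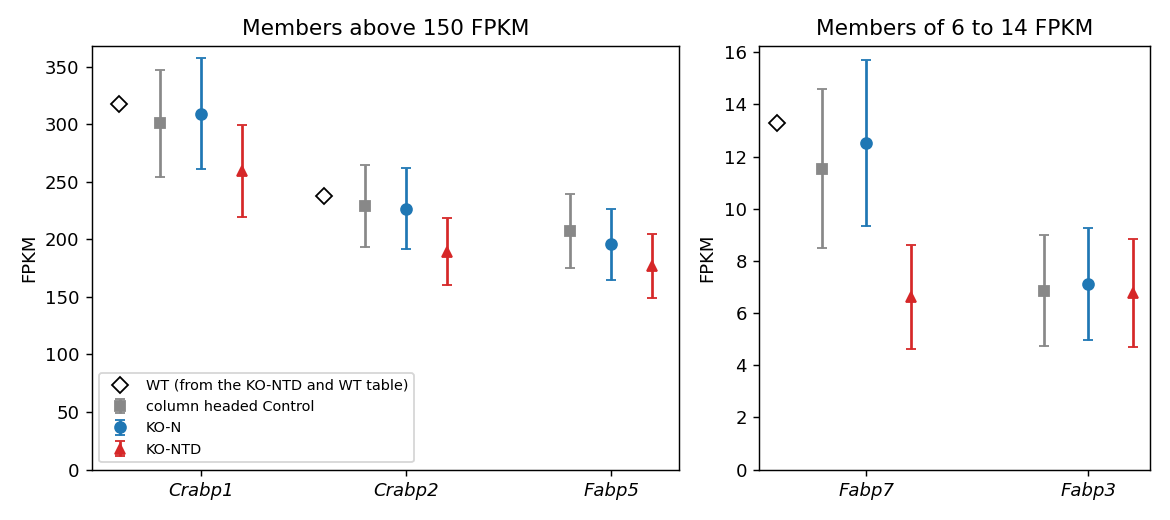
FPKM (vertical axes, starting at 0) of the 5 members above the filter in WT, the column headed Control, KO-N and KO-NTD. Points are the authors' 1 value per group and bars their confidence bounds. WT, without bounds, comes from a separately normalised table and is shown for the 3 members listed there. KO-NTD is the lowest point of all 5 genes, though barely so for *Fabp3*, and only for *Fabp7* do its bounds (4.62 to 8.62) clear those of KO-N (9.34 to 15.7).

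The remaining members are carriers known from adult gut, liver and fat, and were near 0 in these embryos. *Fabp1*, the liver type, was at 0.459 FPKM in KO-NTD, 0.204 FPKM in KO-N and 0.383 FPKM in the Control column (chr6:71199888-71205023). *Rbp2*, which holds retinol in the absorptive cells of the intestine, measured 0.260, 0.356 and 0.263 FPKM in these columns (chr9:98490537-98509771). Neither separated the groups, since the KO-NTD and KO-N bounds overlapped for both, and the log2 fold changes were 0.88 (95% interval -0.64 to 2.40) for *Fabp1* and -0.34 (95% interval -1.54 to 0.85) for *Rbp2*.

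*Fabp4*, the adipocyte type, was at 0.0898 FPKM in KO-NTD, 0.174 FPKM in KO-N and 0.159 FPKM in the Control column, and the lower bound was 0 in each (chr3:10204343-10208576, minus strand). *Fabp2*, the intestinal type, was at 0.0675, 0.0102 and 0.113 FPKM, again with lower bounds of 0. The interval of the log2 fold change ran from -2.22 to 1.16 for *Fabp4* and from -0.83 to 2.04 for *Fabp2*. The *Fabp2* entry of the deposited table spans chr3:122882592-122924116, wider than the annotated gene, and takes in the antisense gene *4933405D12Rik*, from which its few reads cannot be told apart because the strand setting of the counting is not given. A difference in these low members was not detectable with bounds this wide.

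**Figure D2:**
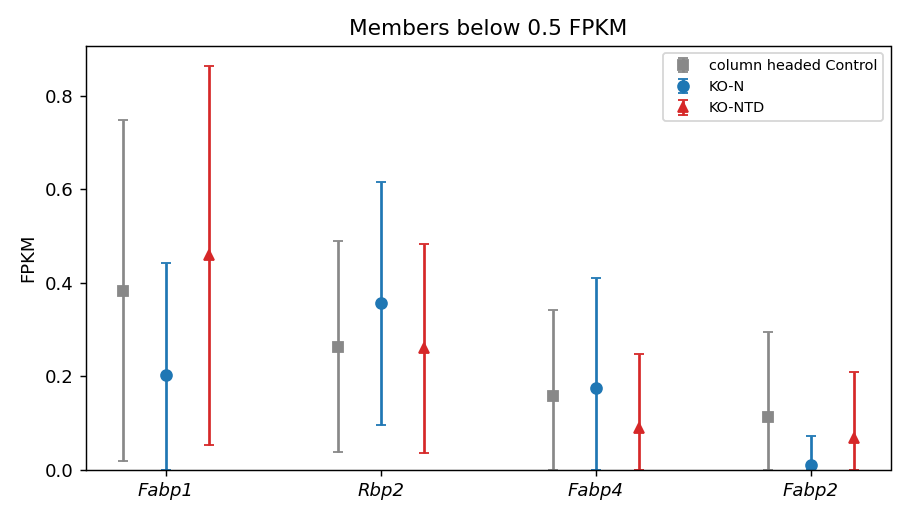
FPKM (vertical axis, starting at 0) of the 4 members below 0.5 FPKM in the column headed Control, KO-N and KO-NTD. Points are the 1 combined value per group and bars the confidence bounds, which overlap between KO-NTD and KO-N for all 4 genes.

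Read against a limit of 0.4 on the log2 scale, the size used by the study to filter its network, 1 of the 5 members above the filter, *Fabp7*, was lower in KO-NTD than in KO-N, and 3.77% of the 13569 genes were lower by that rule. No member was higher, against 3.41% of genes. By bounds that left a gap, 1 member was lower and 0 were higher, against 1.13% and 1.17% of genes. Between KO-N and the Control column no member passed the limit in either direction, as 2.76% of genes did. The median log2 fold change of the 5 members was -0.25, against -0.02 for all genes above the filter. All 5 had a lower value in KO-NTD, as did 58.3% of those genes. Since the members were chosen with this contrast in view, nothing is read from these counts.

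**Figure D3:**
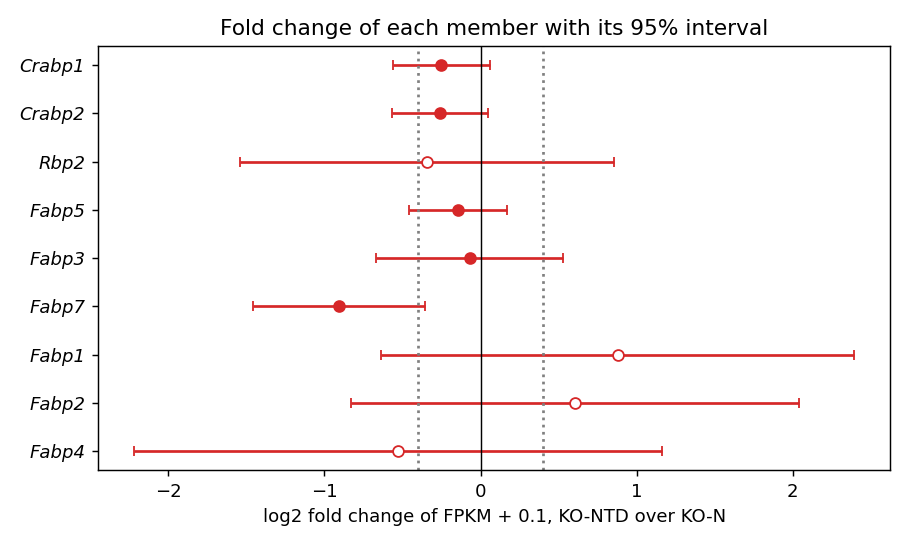
log2 fold change of FPKM + 0.1, KO-NTD to KO-N, (horizontal axis) for each member, with its 95% interval from the deposited bounds. Filled points passed the filter of 0.5 FPKM, open points did not, and dotted lines mark the limit of 0.4. The interval of *Fabp7* (-1.46 to -0.36) is the only one that leaves out 0.

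WT values were at hand for 3 members, in a table of KO-NTD and WT that holds only genes the authors marked as differing. It was normalised separately, so its own KO-NTD values are used beside it. *Crabp1* was at 317 FPKM in WT and 260 FPKM in KO-NTD, 18.0% lower (log2 fold change -0.29). *Crabp2* was at 238 FPKM in WT and 190 FPKM in KO-NTD, 20.3% lower (log2 fold change -0.33). *Fabp7* was at 13.3 FPKM in WT and 6.63 FPKM in KO-NTD (log2 fold change -0.99). These are listed genes only, without bounds, and they share the KO-NTD pools with the comparison above. The other 6 members have no WT value here.

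In an RNA measurement of whole embryos, fewer cells of a type and less RNA per cell cannot be told apart. Genes that mark neural progenitors, the cells known for *Fabp7*, were lower beside it, 5 of 10 by more than the limit and 4 with bounds apart, while none was higher. *Pou3f3*, a factor of neural progenitors, was at 3.27 FPKM in KO-NTD against 7.53 FPKM in KO-N (log2 fold change -1.18), and *Zic1*, of the dorsal neural tube, was at 8.82 and 16.1 FPKM (-0.86). The 10 progenitor markers summed to 150 FPKM in KO-NTD, 209 FPKM in KO-N and 201 FPKM in the Control column. Their median log2 fold change was -0.41. That of *Fabp7*, at -0.91, lay between those of *Pou3f3* and *Zic1*, the markers of this list that fell most. Per 100 FPKM of the summed progenitor markers, *Fabp7* was at 4.42 FPKM in KO-NTD, 5.99 FPKM in KO-N and 5.75 FPKM in the Control column.

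All 8 markers of neurons were lower in KO-NTD by more than the limit, 7 with bounds apart, as with *Elavl3*, an RNA-binding protein of early neurons, at 0.896 FPKM against 2.44 FPKM. Their sum was 22.9 FPKM in KO-NTD, 42.7 FPKM in KO-N and 37.7 FPKM in the Control column. Their median log2 fold change was -1.13. Per 100 FPKM of the summed neuron markers, *Fabp7* was at 28.9 FPKM in KO-NTD, 29.3 FPKM in KO-N and 30.6 FPKM in the Control column. No marker of either list was at 0 in the mutant groups, and the part of these cells in the *Fabp7* difference was not tested.

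The RNA of markers of other cell types also differed. All 12 markers of visceral endoderm, the yolk sac layer that secretes plasma proteins, were higher in KO-NTD, with a sum of 126 FPKM against 23.8 FPKM in KO-N and 57.8 FPKM in the Control column. Of 9 markers of neural crest and craniofacial mesenchyme 4 were lower (sums of 112 and 139 FPKM), and of 6 of primitive erythroid cells 4 were lower (3047 and 4666 FPKM). Of 7 of surface ectoderm 3 were higher (258 and 186 FPKM), namely *Krt8*, *Krt18* and *Cdh1*. *Krt8* and *Krt18*, at 115 and 86.4 FPKM in KO-NTD, held most of that sum. *Epcam*, *Trp63*, *Grhl2* and *Grhl3* lay within the limit, at 0.27, -0.22, 0.15 and 0.30. None of the 8 cardiomyocyte, 8 endothelial and 6 macrophage markers passed the limit among those above the filter, which only 1 of the macrophage markers was. The part of any of these in the values of the members was not tested.

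The genes that feed ligand to these carriers did not share one direction. Of 7 genes of retinol uptake and storage above the filter, 2 were higher and none lower. They were *Rbp4*, the plasma carrier of retinol, at 28.1 FPKM in KO-NTD against 6.47 FPKM in KO-N (log2 fold change 2.10, 95% interval 1.64 to 2.56), and *Ttr*, its partner in plasma, at 28.1 and 3.85 FPKM (2.84). The Control column lay between the mutant groups, at 12.4 FPKM for *Rbp4* and 11.0 FPKM for *Ttr*, and KO-N was below it by log2 fold changes of -0.93 and -1.50. Both are secreted proteins that visceral endoderm also makes, and *Ttr* is on the marker list above. *Stra6*, the cell-surface receptor for RBP4, was at 12.6 and 13.5 FPKM (-0.10).

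Of the 6 enzymes that make or break down retinoic acid, the ligand of the CRABP pair, 3 were lower in KO-NTD and none higher. *Aldh1a3*, a retinal dehydrogenase of the eye and nose region, was at 3.67 FPKM in KO-NTD against 6.03 FPKM in KO-N (log2 fold change -0.70, 95% interval -1.09 to -0.31), with bounds apart. *Cyp26b1*, which breaks retinoic acid down, was at 6.17 and 8.61 FPKM (-0.48), and *Aldh1a1* at 0.395 and 0.684 FPKM (-0.66), both with overlapping bounds. *Aldh1a2*, the main source of retinoic acid in the trunk, was at 29.1 and 26.4 FPKM (0.14).

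Downstream, the receptors and targets mostly stayed within the limit, which only 3.41% of all genes above the filter passed upward and 3.77% downward. Of 8 nuclear receptor genes above the filter only *Hnf4a*, a factor of visceral endoderm that binds fatty acids, passed it, at 1.35 FPKM in KO-NTD against 0.346 FPKM in KO-N (log2 fold change 1.70). *Rxra*, the common partner of the retinoic acid receptors and those of the PPAR type, was at 16.6 and 19.3 FPKM. *Ppard*, which takes ligand from FABP5, was at 6.98 and 7.41 FPKM. None of 12 retinoic acid target genes, some of which are also on the lists above, passed the limit. The 12 targets had a median of -0.01 and sums of 172 FPKM in KO-NTD against 173 FPKM in KO-N. Of these *Cdx1* had the largest absolute log2 fold change, at 3.50 and 2.75 FPKM (0.34).

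None of 12 genes of fatty acid uptake and activation above the filter passed the limit, with a median of -0.03, nor did any of 10 genes of esterification and oxidation, with a median of 0.03. With 3.41% of all genes above the filter higher and 3.77% lower by that limit, nothing is read from these counts in lists so short. *Cd36*, a fatty acid transporter of the same receptor class as SR-B1, was at 6.95 FPKM in KO-NTD against 5.57 FPKM in KO-N (log2 fold change 0.31). *Dbi*, the acyl-CoA binding protein and a carrier of activated fatty acids from another family, was at 99.2 and 111 FPKM (-0.16). The genes around the fatty acid carriers lay nearer to 0 on the log2 scale than *Fabp7* did, as did most genes above the filter.

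**Figure D4:**
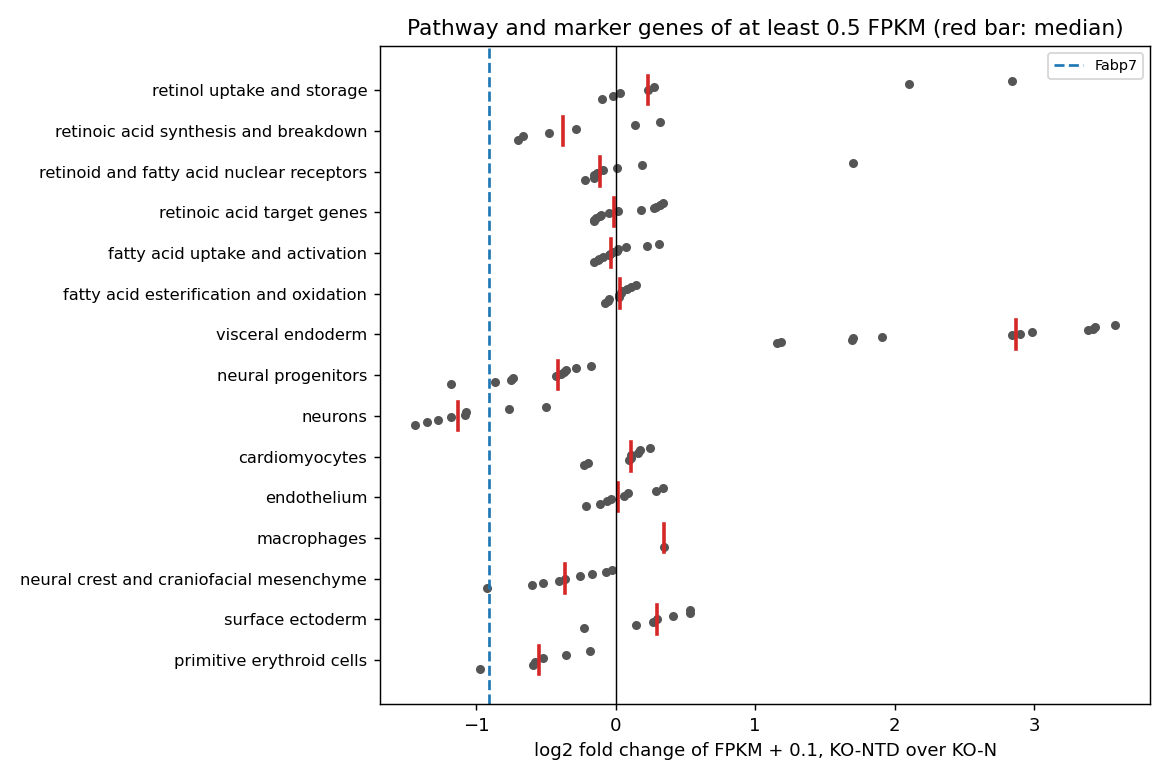
log2 fold change of FPKM + 0.1, KO-NTD to KO-N, (horizontal axis) for each gene of at least 0.5 FPKM in the pathway and marker lists. Each dot is 1 gene, red bars are list medians and the dashed line is *Fabp7* at -0.91. Neuron markers have a median of -1.13 and visceral endoderm markers of 2.87, and the medians of retinoic acid targets (-0.01) and of fatty acid genes (-0.03 and 0.03) lie near 0.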

How the data were processed

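RNA from 9 samples, 3 each of WT, KO-N and KO-NTD embryos, was sequenced as single-end 50-base reads. In Galaxy, the authors used FASTQ Groomer, then TopHat2 0.7 against mm10, and Cufflinks 2.2.1 for FPKM, with an annotation not given in the sources used here. FPKM values and bounds, as deposited, are 1 per group, so the spread between pools cannot be seen, and no count or depth was used. The deposited comparison tables also hold the authors' fold changes, test values, p-values and q-values, which were not used.

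Of 24357 genes, 27 with names turned into dates were left out. Fold changes used a pseudocount of 0.1 FPKM, with standard errors from the distance to the upper bound. The interval calculation was tested on simulated data whose spread was itself taken from the bounds. That test cannot show that the bounds are 2 standard deviations, or that they hold the spread between pools. Python 3.11.15, pandas 2.3.3 and numpy 2.4.6 were used. The members and lists were chosen with earlier results of these data known. Every member is named, with up to 4 genes per list by largest absolute fold change. Others, named to show the pathway, the labels or the make-up of a list, were chosen after their values were seen. They were *Stra6*, *Aldh1a2*, *Ppard*, *Eif2s3y*, *Tubb3* and the further markers named of neural progenitors and surface ectoderm. Genes most like *Fabp7* were the 5 nearest, of at least 1 FPKM, in Euclidean distance over the log2 fold changes KO-NTD to KO-N and KO-N to Control. Gene structures and shared 50-base windows are from GENCODE vM21 transcripts. Protein sequences were not used here. Alternatives were the pseudocount, the filter, the limit, the Control column and centring on the median of all genes. For the bounds, the alternative was a 95% interval that leaves out 0. Some results on related genes are not reported here.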

Additional observations from a re-analysis of the deposited data

How the results depend on the processing

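The deposited values are 1 per group, which bounds every result here. No paired analysis was possible because the values of the pools are combined, and leaving out a pool in turn could not be run for the same reason. Of 52 alternative values computed, 47 stayed within the tolerance set. The tolerance is 1 standard error for a fold change, 1 SD over the members for their median and 1.5 times for a count. Many of the 52 could hardly leave it. Centring on the median of all genes, which is -0.02, shifts every fold change alike. The pseudocounts barely move the members above 150 FPKM. Nothing is therefore read from the count of 47. The standard error is wide for the members below 0.5 FPKM, so their size still moved within it. *Fabp1* was at 0.28 with a pseudocount of 1 FPKM (0.88 with 0.1). *Rbp2* was at -0.01 over the Control column (-0.34 over KO-N). Without the filter of 0.5 FPKM, 2 members were higher in KO-NTD by the limit of 0.4 (*Fabp1* and *Fabp2*, in place of 0) and 2 were lower (*Fabp7* and *Fabp4*, in place of 1). The added members all lie below 0.5 FPKM. With a limit of 1 on the log2 scale, 0 members were lower, since *Fabp7* is at -0.91. *Fabp2* turned from 0.60 over KO-N to -0.35 over the Control column, and with a pseudocount of 0.01 FPKM it was 1.94 over KO-N. Its bounds reach 0 in every column.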

Other observations

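A further 5 genes of the family were near or at 0. *Rbp7* was at 0.0584 FPKM in KO-NTD against 0.0340 FPKM in KO-N, *Pmp2*, a protein of peripheral myelin, was at 0.00741 FPKM in KO-NTD and listed at 0 in KO-N, and *Fabp6*, *Fabp9* and *Fabp12* were listed at 0.

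Neighbouring genes of the family differed widely in level. *Fabp5* lies in a cluster of 5 family genes on chromosome 3, with *Pmp2*, *Fabp9*, *Fabp4* and *Fabp12* beginning 167.3, 181.0, 191.8 and 231.6 kb from its start. *Fabp5* reached 207 FPKM in its highest column, and none of the other cluster genes exceeded 0.174 FPKM. The overlapping gene *Gm37389* shares 86.6% of the 50-base windows of *Pmp2* and 47.8% of those of *Fabp9*, so the values of this pair depend on how shared reads were divided.

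Over the 3 columns, the 5 genes of 12498 searched whose fold changes were nearest to those of *Fabp7* were *Snora34*, a small nucleolar RNA, *Rspo2*, a secreted Wnt agonist, *Olig2*, a factor of motor neuron progenitors, *Gal*, a neuropeptide, and *Hoxd10*. *Olig2* was at 2.46 FPKM in KO-NTD against 4.58 FPKM in KO-N, and *Rspo2* at 1.09 and 2.17 FPKM. With 3 columns the likeness rests on a pair of fold changes.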
